A study of Equus asinus with 12 samples.

Results

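The genes described here are 9 transcription factors and cofactors that mark where in the body a muscle forms or which muscle lineage its cells belong to: TBX1, TBX18, PITX1, LBX1, SIM1, ZIC1, SIX4, EYA1 and EYA4. They were taken by gene name from a table of 27084 loci of donkey skeletal muscle. The names occur on 13 rows, and where a name had several rows the row with the highest mean level over the 12 libraries was used. RNA was measured in 24-month-old Dezhou donkeys of the strains Wutou and Sanfen. The 4 groups were Wutou gluteal muscle, Wutou longissimus dorsi, Sanfen gluteal muscle and Sanfen longissimus dorsi, with 3 libraries each. The animals carried no treatment or engineered allele that the labels name. The 12 samples came from 6 donkeys, per the series' design, and which libraries came from which animal is not labelled, so p-values measure the spread between these libraries.

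Skeletal muscle of the trunk and limbs forms from the somites. The dorsal (epaxial) part of the somite gives the deep back muscles, to which longissimus dorsi belongs, and the ventral (hypaxial) part gives the limb and body wall muscles, with which the gluteal muscles are grouped. Cells carry such positions as sets of transcription factors, some of which stay on in the adult. Homeodomain proteins such as SIX4 and their EYA partners act upstream of the myogenic regulators in the embryo.

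All libraries were rich in myofibre RNA: the summed level of 8 myofibre markers, among them ACTA1, CKM and TTN, was 26650 to 27480 FPKM in Wutou gluteal, 28700 to 33910 in Wutou longissimus, 25910 to 34040 in Sanfen gluteal and 25880 to 33680 in Sanfen longissimus libraries (fragments per kilobase of transcript, scaled to the mapped fragments of the library). The number of reads behind each value is not given. The 10 most abundant loci held 43.8% to 56.5% of the FPKM of a library. Sanfen gluteal library 1 stood apart from the others: its mean deviation from the gene means was 1.06 on the log2 scale over 11 slow fibre genes, -0.593 over 12 fast fibre genes and 1.72 over 5 tendon genes. The next library, Sanfen longissimus 2, was at 0.713 for slow fibre genes and -0.538 for fast fibre genes. In several positional genes Sanfen gluteal library 1 lay nearer the longissimus than the other gluteal libraries. TBX1 was at 0.669 FPKM in it, TBX4 and SHOX2 were listed at 0 and ZIC4 was at 1.03 FPKM. TBX4, SHOX2 and ZIC4 were chosen after their values were seen, and other positional genes went the other way. PRRX1, at 1.74 FPKM in this library, was above all longissimus libraries. The ZIC1 locus with the reference transcript was listed at 0 in it, against 1.52 to 2.20 FPKM in Sanfen longissimus libraries. PITX1 was listed at 0 in Sanfen gluteal library 1, as in 2 other gluteal libraries. Whether its tissue was the labelled one or mixed was not tested, and this bears on every Sanfen gluteal value. The Sanfen differences of TBX1, PITX1, LBX1, SIM1, ZIC1 (row with the highest mean) and EYA1 are given with and without this library. Other results that include it are given with it only, or as a range over libraries left out. An FPKM of 0 in the table need not mean that a transcript was missing. A locus was tested when 3 or more libraries reached 1 FPKM, and of the 12408 such loci 42 (0.338%) were listed at 0 in some library and at 10 FPKM or more in another.

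The 9 genes ranged widely in abundance among the loci tested. Mean FPKM over the 12 libraries was 4.50 for SIX4, 3.94 for TBX1, 2.99 for EYA4, 2.40 for PITX1, 1.89 for EYA1, 1.83 for TBX18, 1.15 for ZIC1, 0.957 for LBX1 and 0.781 for SIM1. SIX4 lay above 77.3% of the 12408 loci tested and SIM1 above 6.26%. Each neighbouring pair in this order differed by less than the larger SD of the pair over the 12 libraries, and the place of PITX1 came from a single library. All 9 passed the filter on low values. PITX1 and LBX1 passed it through exactly 3 libraries each, and these were the same gluteal libraries, Sanfen 3, Wutou 1 and Wutou 3, so a higher gluteal level of these 2 genes is in part set by the filter.

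**Figure D1:**
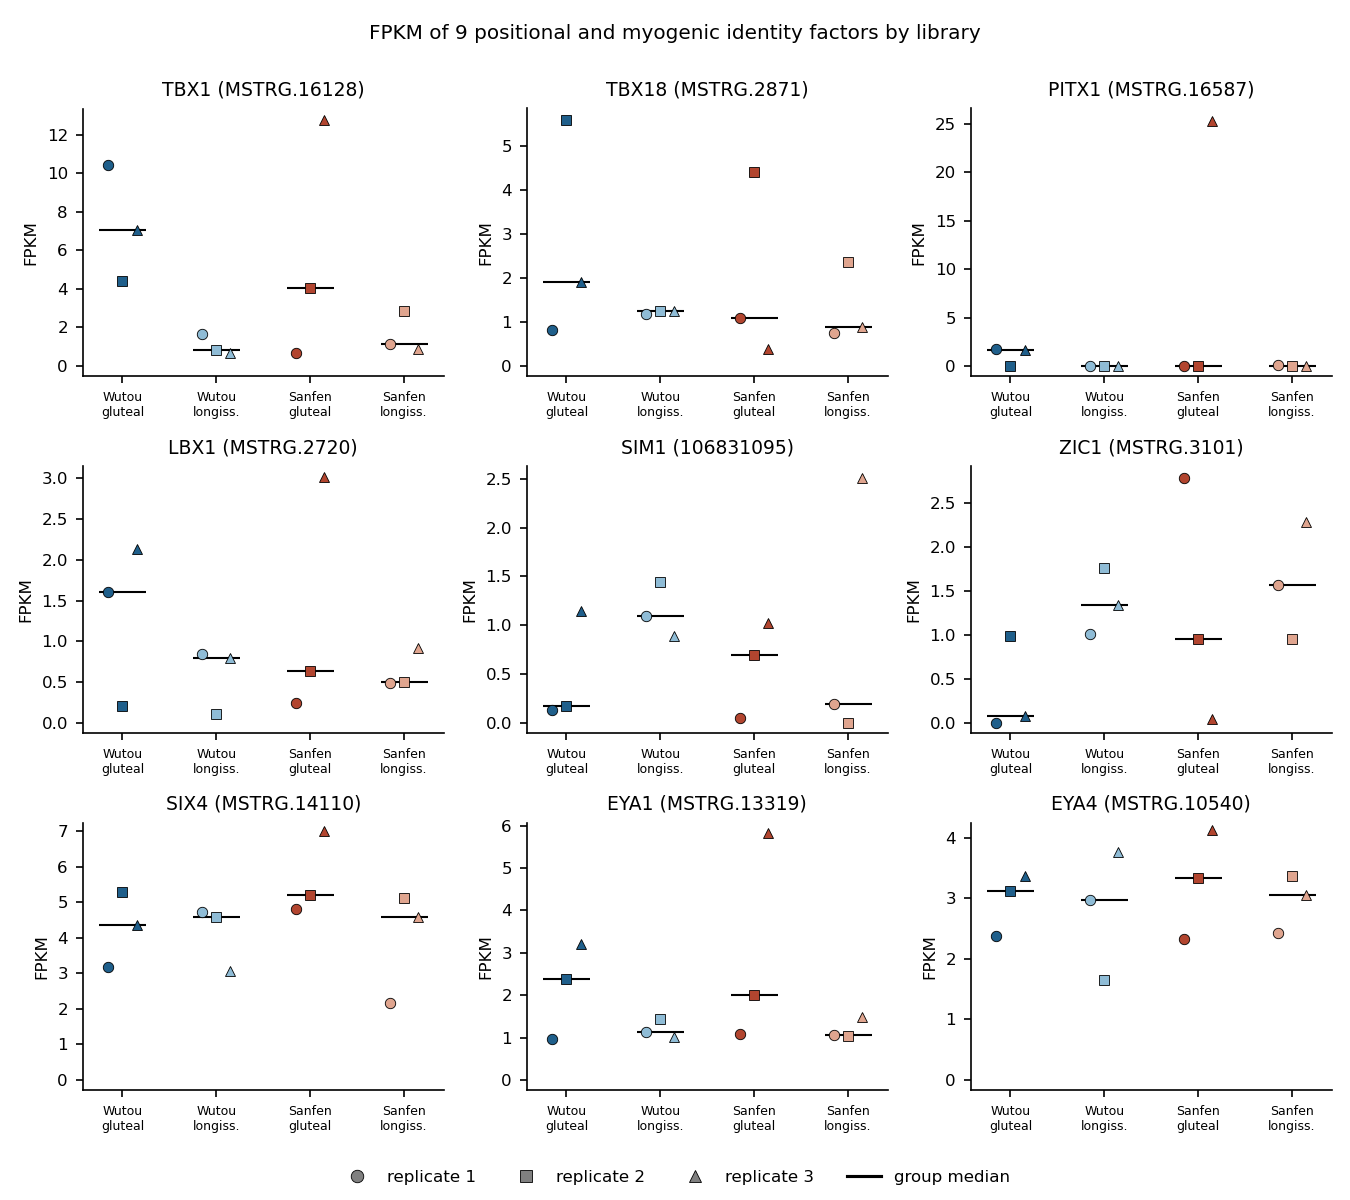
FPKM (linear vertical axes, 1 scale per gene) of the 9 factors in each library; columns are the 4 groups, symbols give the replicate number and bars the group median. TBX1 was high in all 3 Wutou gluteal libraries, PITX1 reached 25.3 FPKM in Sanfen gluteal library 3 and was near 0 in all longissimus libraries, and EYA4 and SIX4 overlapped throughout.

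The muscle comparison asked which genes differ between the gluteal muscle and longissimus dorsi in each strain. None of the 9 passed an adjusted p of 0.05 (limma with Benjamini-Hochberg adjustment over the 12408 loci) in Wutou, in Sanfen or in the contrast averaged over strains. Few loci did so at all: 0.0% in Wutou, 0.0242% in Sanfen and 0.0% averaged. The 3 Sanfen loci became 1 with the replicate number as a block, and none of the 9 genes was called under the block. At an unadjusted p under 0.05, 1 of the 9 rows used, TBX1, was past the threshold in Wutou, 0 in Sanfen and 1, again TBX1, averaged. The same share of all loci was 5.68% in Wutou, 3.57% in Sanfen and 6.56% averaged. The ZIC1 row with the reference transcript is not among the 9 rows used. It was past the threshold in Sanfen (unadjusted p = 0.00401, limma) and averaged (0.00448). That row reached 1 FPKM in longissimus libraries only, so the filter favoured its sign. Of the 9 estimates, 7 were positive (higher in gluteal) in each strain, with a median log2 difference of 0.47 in Wutou and 0.31 in Sanfen. PITX1 and LBX1, whose sign the filter favoured, were among them, and of the remaining 7 genes 5 were positive in each strain, with median log2 differences of 0.09 in Wutou and 0.17 in Sanfen. Over all loci 58.6% of estimates were positive in Wutou and 67.6% in Sanfen, with medians of 0.05 and 0.08.

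TBX1 encodes a T-box factor known for patterning the pharyngeal arches and the head muscles that arise there. It had 10.4, 4.40 and 7.03 FPKM in Wutou gluteal libraries 1 to 3, against 1.64, 0.843 and 0.656 FPKM in Wutou longissimus libraries. Every Wutou gluteal library was above every Wutou longissimus library. TBX1 averaged 7.29 ± 3.03 FPKM in Wutou gluteal and 1.05 ± 0.52 FPKM in Wutou longissimus (SD, n = 3 each). Among all loci, 8.7% had all Wutou gluteal libraries above all Wutou longissimus libraries. The log2 difference was 1.98 ± 0.60 (SE; adjusted p = 0.870, limma).

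In Sanfen, TBX1 had 0.669, 4.04 and 12.7 FPKM in gluteal libraries 1 to 3, against 1.15, 2.84 and 0.861 FPKM in longissimus libraries. Gluteal libraries 2 and 3 were above all longissimus libraries, and gluteal library 1 was among the lowest of the 12, so the muscles overlapped. The Sanfen log2 difference was 0.97 ± 0.60 (SE; adjusted p = 1, limma). It was 1.74 without gluteal library 1 and 0.22 without gluteal library 3. Averaged over strains it was 1.48 ± 0.43 (SE; adjusted p = 0.745), and 1.86 (adjusted p = 0.242) without Sanfen gluteal library 1. The estimate stayed positive when each library was left out in turn, between 1.10 and 1.86, with no adjusted p under 0.05. The difference between the strains' muscle contrasts was 1.01 ± 0.85 (SE; adjusted p = 1).

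TBX18, another T-box factor, is known in mice from somite patterning and as a marker of pericytes and vascular smooth muscle cells. It had 0.826, 5.59 and 1.90 FPKM in Wutou gluteal libraries, against 1.18, 1.25 and 1.26 FPKM in Wutou longissimus libraries. The Sanfen values were 1.10, 4.40 and 0.393 FPKM in gluteal libraries, against 0.762, 2.36 and 0.876 FPKM in longissimus libraries. The muscles overlapped in both strains, and the libraries numbered 2 were the highest of their group in 3 of the 4 groups. The log2 difference was 0.55 ± 0.51 in Wutou (SE; adjusted p = 0.927) and 0.17 ± 0.51 in Sanfen (adjusted p = 1). With a library left out it ran from 0.05 (without gluteal 2) to 0.97 (without gluteal 1) in Wutou. In Sanfen it ran from -0.38 (without gluteal 2) to 0.59 (without gluteal 3).

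PITX1, a homeodomain factor that specifies hindlimb identity in vertebrate embryos, was listed at or near 0 in most libraries. It had 1.76, 0 and 1.61 FPKM in Wutou gluteal libraries, against 0, 0 and 0.0279 FPKM in Wutou longissimus libraries. Sanfen values were 0, 0 and 25.3 FPKM in gluteal libraries, against 0.0583, 0 and 0.0288 FPKM in longissimus libraries. All 3 libraries above 1 FPKM were gluteal, while the other 3 gluteal libraries were listed at 0. The log2 difference was 0.94 ± 0.98 in Wutou (SE; adjusted p = 0.943) and 1.53 ± 0.98 in Sanfen (adjusted p = 1). The Sanfen value was 2.32 without gluteal library 1, and the Wutou value 1.41 without gluteal library 2. Without any of the 3 libraries above 1 FPKM the gene no longer passed the filter. MACROH2A1, its neighbour in the RefSeq annotation and a histone variant gene, varied little, at 2.79 to 3.20 FPKM in Wutou gluteal, 2.59 to 2.90 in Wutou longissimus, 2.86 to 3.56 in Sanfen gluteal and 2.66 to 3.23 in Sanfen longissimus libraries.

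LBX1 marks the muscle precursors that migrate from the somite into the limbs. It had 1.61, 0.211 and 2.13 FPKM in Wutou gluteal libraries, against 0.846, 0.105 and 0.793 FPKM in Wutou longissimus libraries. In Sanfen it had 0.240, 0.634 and 3.01 FPKM in gluteal libraries, against 0.485, 0.499 and 0.920 FPKM in longissimus libraries. The 3 libraries with PITX1 above 1 FPKM were also the 3 with LBX1 above 1 FPKM, and in the rest the muscles overlapped. The log2 difference was 0.48 ± 0.44 in Wutou (SE; adjusted p = 0.926) and 0.31 ± 0.44 in Sanfen (adjusted p = 1). The Sanfen value was 0.66 without gluteal library 1, and the Wutou value 0.24 without longissimus library 2 and 0.89 without gluteal library 2. Like PITX1, LBX1 did not pass the filter without any of its 3 libraries above 1 FPKM.

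SIM1, a bHLH-PAS factor found in the ventral lip of the somite in chick and mouse embryos, was the least abundant of the 9. It had 0.133, 0.176 and 1.15 FPKM in Wutou gluteal libraries, against 1.10, 1.44 and 0.888 FPKM in Wutou longissimus libraries. Its Sanfen values were 0.0532, 0.696 and 1.02 FPKM in gluteal libraries, against 0.199, 0 and 2.51 FPKM in longissimus libraries. The muscles overlapped in both strains. The log2 difference was -0.59 ± 0.44 in Wutou (SE; adjusted p = 0.919) and -0.07 ± 0.44 in Sanfen (adjusted p = 1). The Sanfen value turned positive, 0.20 without gluteal library 1, 0.49 without longissimus library 3 and 0.27 with a pseudocount of 0.1. The Wutou value was -0.88 without gluteal library 3.

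ZIC1 is a zinc finger factor of the dorsal neural tube and dorsal somite, and in fish it is needed for the dorsal pattern of the trunk. Its name stood on 2 rows with a level in muscle, both past the filter: the assembled locus MSTRG.3101, with the higher mean and no reference transcript, and MSTRG.3100, which holds the reference transcript, with a mean of 0.800 FPKM. MSTRG.3101 had 0, 0.991 and 0.0760 FPKM in Wutou gluteal libraries, against 1.01, 1.76 and 1.35 FPKM in Wutou longissimus libraries. Sanfen libraries had 2.79, 0.955 and 0.0422 FPKM in gluteal libraries, against 1.57, 0.955 and 2.29 FPKM in longissimus libraries. Every Wutou gluteal library was below every Wutou longissimus library, an order found at 4.18% of all loci, while Sanfen gluteal library 1 was the highest of all 12. The log2 difference was -0.87 ± 0.41 in Wutou (SE; adjusted p = 0.870) and -0.37 ± 0.41 in Sanfen (adjusted p = 1). The Sanfen value was -0.84 without gluteal library 1 and 0.10 without gluteal library 3.

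At the reference locus MSTRG.3100, ZIC1 had 0, 0.915 and 0 FPKM in Wutou gluteal libraries, against 1.11, 0 and 1.58 FPKM in Wutou longissimus libraries. In Sanfen this locus had 0, 0.524 and 0 FPKM in gluteal libraries, against 1.74, 2.20 and 1.52 FPKM in longissimus libraries. Here the Sanfen muscles did not overlap, with gluteal lower, and the Wutou muscles did, the reverse of MSTRG.3101. The locus reached 1 FPKM in 5 libraries, all of them longissimus, so its lower gluteal level is in part set by the filter. Among all loci, 1.27% had all Sanfen gluteal libraries below all Sanfen longissimus libraries, and 6.27% had them above. None of the 9 rows chosen by mean level had Sanfen muscles that did not overlap. The log2 difference at MSTRG.3100 was -0.50 ± 0.36 in Wutou (SE; adjusted p = 0.912), -1.29 ± 0.36 in Sanfen (adjusted p = 1) and -0.89 ± 0.25 averaged (adjusted p = 0.745). The Wutou value was -0.91 without longissimus library 2 and -0.23 without longissimus library 3. How the authors' counting divided reads between the 2 loci is not given, so neither row can be read as the level of ZIC1 alone.

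**Figure D2:**
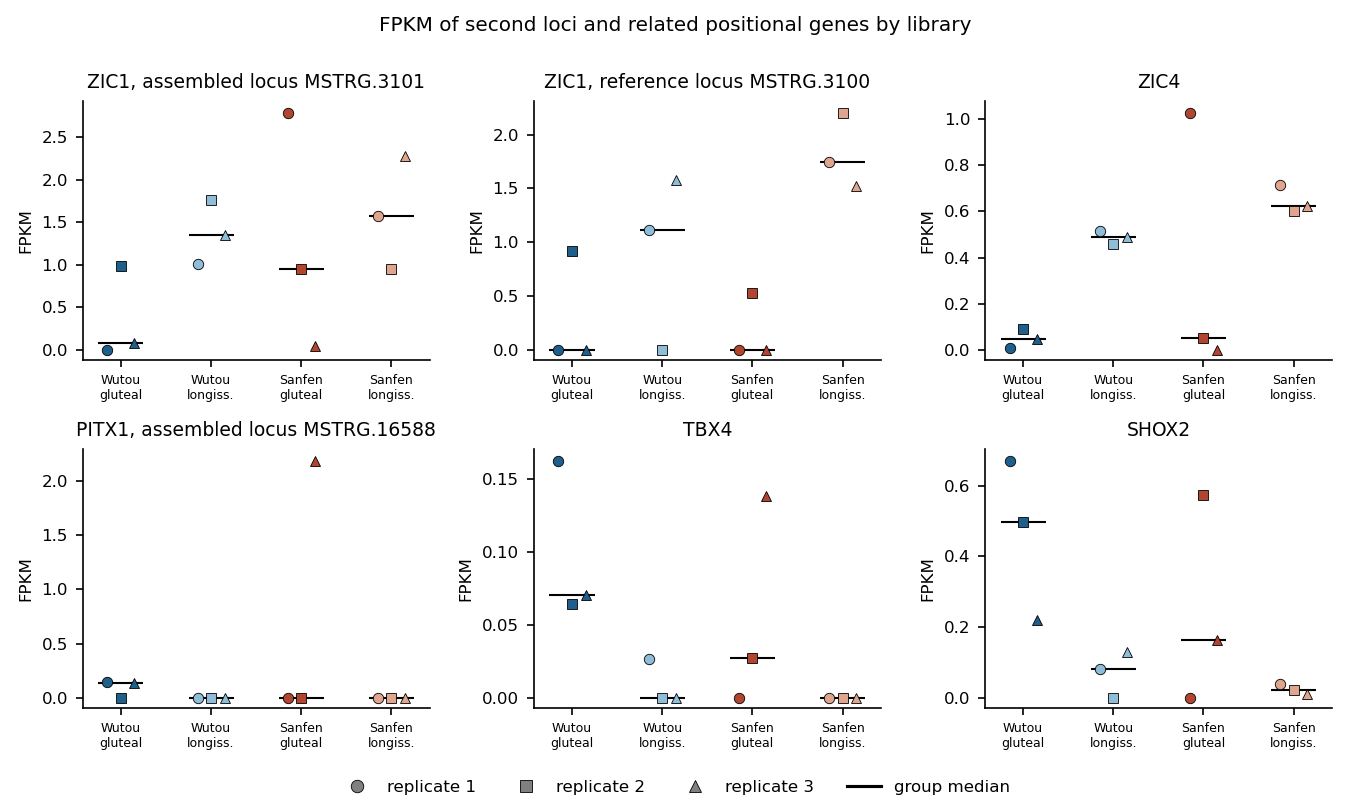
FPKM (linear vertical axes, 1 scale per panel) in each library for both ZIC1 loci, the second PITX1 locus and the related genes ZIC4, TBX4 and SHOX2, with bars at the group median. ZIC4 lay at 0.457 to 0.715 FPKM in all 6 longissimus libraries and at 0.0886 FPKM or less in 5 of the 6 gluteal libraries, and Sanfen gluteal library 1 had 1.03 FPKM.

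ZIC4, TBX4 and SHOX2, related genes that did not pass the filter, are given beside these and were chosen after their values were seen. ZIC4, the RefSeq neighbour of ZIC1 and a zinc finger factor of the same family, had 0.00710, 0.0886 and 0.0465 FPKM in Wutou gluteal libraries, against 0.517, 0.457 and 0.488 FPKM in Wutou longissimus libraries. In Sanfen it had 1.03, 0.05 and 0 FPKM in gluteal libraries, against 0.715, 0.600 and 0.621 FPKM in longissimus libraries. Gluteal was lower than longissimus in every library but Sanfen gluteal 1, which was the highest of the 12. Among the loci tested, to which ZIC4 does not belong, 4.18% had all Wutou gluteal libraries below all Wutou longissimus libraries. With no filter on low values, the ZIC4 log2 difference averaged over strains was -0.43 ± 0.15 (SE; adjusted p = 0.829, limma).

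TBX4, which acts with PITX1 in hindlimb outgrowth, had 0.162, 0.0642 and 0.0707 FPKM in Wutou gluteal libraries, against 0.0262, 0 and 0 FPKM in Wutou longissimus libraries. SHOX2, a homeobox gene needed for the proximal limb skeleton in mice, had 0.671, 0.497 and 0.221 FPKM in Wutou gluteal libraries, against 0.0806, 0 and 0.128 FPKM in Wutou longissimus libraries. Both genes were higher in each Wutou gluteal library than in any Wutou longissimus library, all at levels under 1 FPKM. Among the loci tested, to which neither gene belongs, 8.7% had this order. With the depth unknown, the counting error at such levels cannot be given. In Sanfen, TBX4 was listed at 0, 0.0276 and 0.138 FPKM in gluteal and at 0 in all 3 longissimus libraries. SHOX2 had 0, 0.574 and 0.164 FPKM in Sanfen gluteal libraries, against 0.0392, 0.0229 and 0.0108 FPKM in Sanfen longissimus libraries. With no filter the averaged differences had adjusted p-values of 0.819 for TBX4 and 0.817 for SHOX2 (limma). The second PITX1 locus, MSTRG.16588, followed the first: it had 0.144, 0 and 0.141 FPKM in Wutou gluteal and 0, 0 and 2.19 FPKM in Sanfen gluteal libraries, and it was listed at 0 in all longissimus libraries.

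SIX4, a homeodomain factor that binds control regions of muscle genes, was the most abundant of the 9 and was above 1 FPKM in every library. It averaged 4.27 ± 1.06 FPKM in Wutou gluteal and 4.13 ± 0.92 FPKM in Wutou longissimus (SD, n = 3 each). It averaged 5.67 ± 1.17 FPKM in Sanfen gluteal and 3.96 ± 1.56 FPKM in Sanfen longissimus. The muscles overlapped in both strains, with log2 differences of 0.03 ± 0.26 in Wutou (SE; adjusted p = 0.999) and 0.47 ± 0.26 in Sanfen (adjusted p = 1). In Sanfen it was 0.18 without longissimus library 1. Sanfen SIX4 was higher in gluteal for each of the 3 replicate numbers. The Wutou value turned to -0.03 under either rescaling between libraries.

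EYA1 and EYA4 encode EYA proteins, phosphatases that SIX4 and its relatives recruit to DNA as cofactors. EYA1 had 0.956, 2.39 and 3.20 FPKM in Wutou gluteal libraries, against 1.12, 1.43 and 1.02 FPKM in Wutou longissimus libraries. In Sanfen it had 1.09, 2.0 and 5.83 FPKM in gluteal libraries, against 1.07, 1.04 and 1.49 FPKM in longissimus libraries. Gluteal libraries 2 and 3 of both strains were above all 6 longissimus libraries, and gluteal libraries 1 were not. The EYA1 log2 difference was 0.47 ± 0.38 in Wutou (SE; adjusted p = 0.919), 0.68 ± 0.38 in Sanfen (adjusted p = 1) and 0.57 ± 0.27 averaged (adjusted p = 0.756). Each Sanfen gluteal library was above the longissimus library of the same number, as for SIX4. For TBX1, LBX1 and TBX18 this held for 2 of the 3 Sanfen replicate numbers. For PITX1, ZIC1 (row with the highest mean), SIM1 and EYA4 it held for 1 of 3. That equal numbers pair the Sanfen muscles was itself taken from the values. In Sanfen the EYA1 difference was 1.05 without gluteal library 1 and 0.19 without gluteal library 3. In Wutou the EYA1 difference was 0.79 without gluteal library 1 and 0.24 without gluteal library 3. Averaged, it was 0.33 without Sanfen gluteal library 3.

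EYA4 had the smallest range of the 9 on the log2 scale. It averaged 2.96 ± 0.51 FPKM in Wutou gluteal and 2.79 ± 1.07 FPKM in Wutou longissimus (SD, n = 3 each). It averaged 3.26 ± 0.90 FPKM in Sanfen gluteal and 2.94 ± 0.48 FPKM in Sanfen longissimus. The log2 differences were 0.09 ± 0.23 in Wutou (SE; adjusted p = 0.990) and 0.10 ± 0.23 in Sanfen (adjusted p = 1), within the spread between libraries. The name also stood on a second locus past the filter, MSTRG.10541, an assembled transcript with no reference transcript and a mean of 2.81 FPKM. That locus had negative estimates, -0.17 ± 0.34 in Wutou and -0.11 ± 0.34 in Sanfen (SE). In the RefSeq annotation EYA4 overlaps long non-coding RNAs and a pseudogene, and since strand-specific counting is not stated, any reads of these cannot be told apart from those of EYA4.

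**Figure D3:**
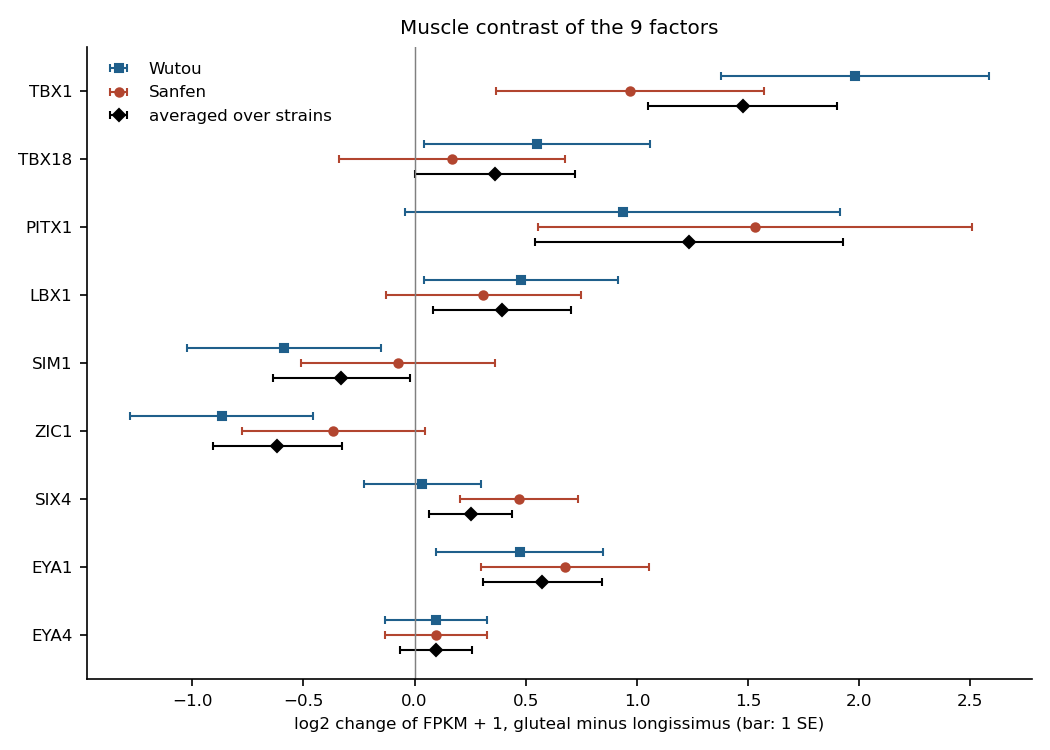
Difference in log2(FPKM + 1), gluteal minus longissimus (horizontal axis), of the 9 factors (rows) in Wutou, in Sanfen and averaged over strains, with bars of 1 SE from limma. TBX1 averaged over strains (1.48 ± 0.43) lay farthest from 0 in units of its SE, and SIM1 and ZIC1 were the 2 genes with negative estimates in each strain.

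The 9 genes did not divide the libraries by muscle alone. In the map of deviations from each gene's mean, Sanfen gluteal library 3 had the highest value of all 12 for TBX1, PITX1, LBX1, SIX4, EYA1 and EYA4. Wutou gluteal libraries 1 and 3 followed it in TBX1, PITX1 and LBX1, and all 3 were the lowest of the 12 in ZIC1 at MSTRG.3101. Gluteal libraries Sanfen 1, Sanfen 2 and Wutou 2 had PITX1 listed at 0 and LBX1 under 1 FPKM.

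**Figure D4:**
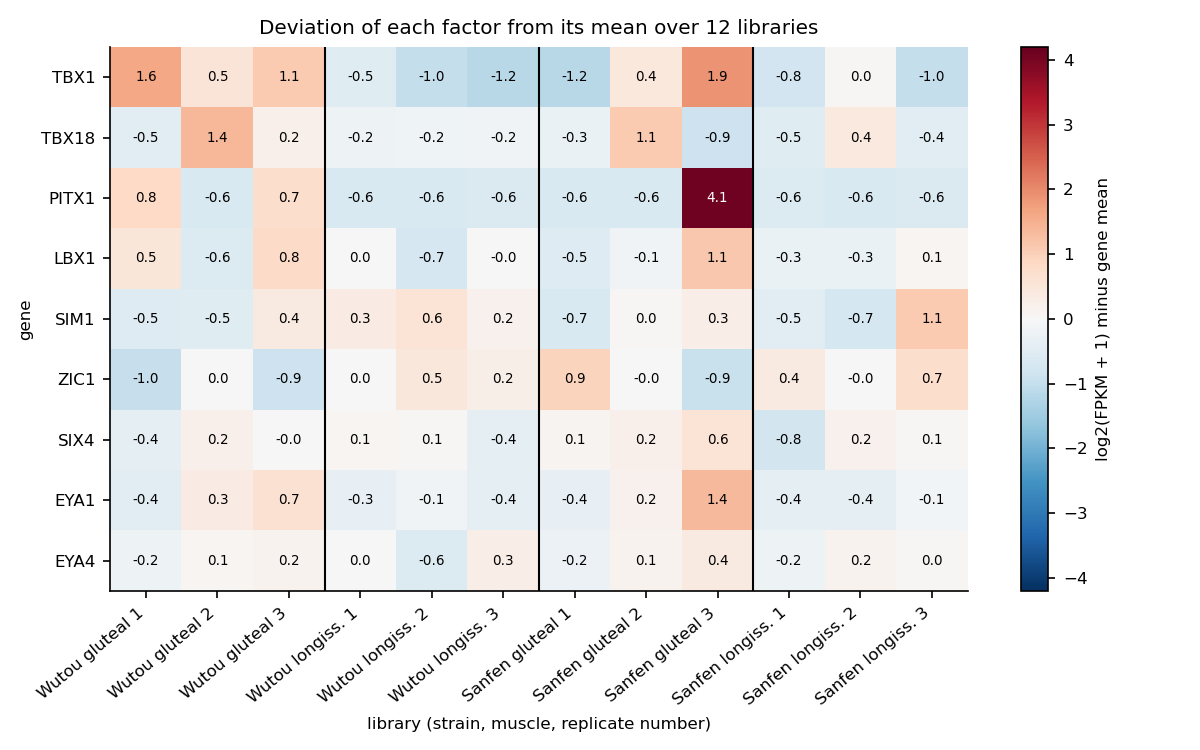
Deviation of log2(FPKM + 1) from the gene's mean over the 12 libraries (colour and printed value) for the 9 factors (rows) in each library (columns, with lines between groups). Sanfen gluteal 3 stands out with 4.08 for PITX1 and 1.88 for TBX1, and Sanfen gluteal 1 was negative for TBX1, PITX1 and LBX1.

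Across the 12 libraries TBX1 and ZIC1 at MSTRG.3101 ran opposite on the log2(FPKM + 1) scale (Pearson r = -0.932, Spearman rho = -0.895). Correlations here are descriptions over libraries that may share donkeys, and FPKM values of a library share its total. Without the 2 libraries farthest in TBX1 (Sanfen gluteal 3 and Wutou gluteal 1) r was -0.866, and it was -0.969 within the 6 gluteal and -0.720 within the 6 longissimus libraries. With ZIC1 at MSTRG.3100, r was only -0.458, and -0.168 without those 2 libraries. The 2 ZIC1 loci were weakly related to each other, with r = 0.395 (rho = 0.268) over 12 libraries and 0.0863 without the 2 farthest. The EYA4 loci were likewise weakly related, with r = 0.322 (rho = 0.161) and 0.0133 without the 2 farthest. EYA1 and SIX4 had r = 0.628 (rho = 0.580), and 0.548 without the 2 farthest.

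TBX18 is a marker of mural cells, and its level ran with the mean of 9 mural and smooth muscle genes (r = 0.663, rho = 0.497; 0.505 without the 2 farthest; 0.688 within gluteal and 0.698 within longissimus libraries). The mural list, which includes ACTA2, MYH11 and PDGFRB, summed to 75.2 to 122 FPKM in Wutou gluteal, 77.0 to 94.6 in Wutou longissimus, 72.0 to 148 in Sanfen gluteal and 65.4 to 100 in Sanfen longissimus libraries. Of its 9 genes, 7 in Wutou and 6 in Sanfen had positive muscle differences, and none was at 0 in a whole group. Over all loci 58.6% were positive in Wutou and 67.6% in Sanfen. RGS5 and CSPG4 were negative in both strains and PDGFRB in Sanfen, with RGS5 at -1.13 ± 0.40 in Sanfen (SE). Against the mean of 4 satellite cell genes r was higher, 0.710 (rho = 0.517, 0.582 without the 2 farthest, 0.733 within gluteal and 0.855 within longissimus libraries). These 4 genes were MYF5, VCAM1, CDH15 and HEYL. PAX7, CALCR and CHRDL2 did not pass the filter and are not in this mean. The 7 satellite genes with a row summed to 9.04 to 12.8 FPKM in Wutou gluteal, 8.65 to 12.6 in Wutou longissimus, 8.13 to 14.0 in Sanfen gluteal and 6.74 to 13.6 in Sanfen longissimus libraries, and 3 of the 4 tested had positive differences in each strain. None of them was at 0 in a whole group. Against the mean of 7 endothelial genes r was 0.753 (rho = 0.538), but 0.127 without the 2 farthest libraries. The endothelial list summed to 43.0 to 80.2 FPKM in Wutou gluteal, 44.7 to 57.1 in Wutou longissimus, 56.6 to 78.9 in Sanfen gluteal and 46.4 to 61.7 in Sanfen longissimus libraries, and CLDN5 was at 0 in all Sanfen longissimus libraries. Its 7 genes all had positive muscle differences in each strain, with a median log2 difference of 0.27 in Wutou and 0.18 in Sanfen and no call. The part of these cell types in the TBX18 values was not tested, and in bulk tissue fewer cells of a type and less RNA per cell cannot be told apart.

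SIM1 ran with the mean of 12 fast fibre genes (r = 0.721, rho = 0.825; 0.593 without the 2 farthest; 0.692 within gluteal and 0.739 within longissimus libraries). Against the mural genes its r was -0.732 (rho = -0.727). The fast fibre genes summed to 18220 to 27330 FPKM in Wutou gluteal and 28640 to 29450 FPKM in Wutou longissimus libraries. In Sanfen they summed to 14430 to 26270 FPKM in gluteal and 11220 to 26570 FPKM in longissimus libraries. Their mean weighs each gene alike and includes TNNT3 and PVALB, at no more than 5.43 and 1.93 FPKM. SIX4 showed no such relation to the fast fibre genes, with r = -0.0696, and EYA1 a weak one, with r = 0.291. EYA1 ran opposite to the mean of 4 immune cell genes (r = -0.748, rho = -0.699; -0.632 without the 2 farthest). The 6 immune genes with a row summed to 8.60 to 12.8 FPKM in Wutou gluteal, 7.60 to 13.3 in Wutou longissimus, 6.08 to 13.5 in Sanfen gluteal and 9.37 to 11.5 in Sanfen longissimus libraries. The part of immune cells in the EYA1 values was not tested. The relations to lists given here and for TBX18 are a selection, mostly of the larger ones, from those of the 9 genes with every list. They are a description of the 12 libraries.

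**Figure D5:**
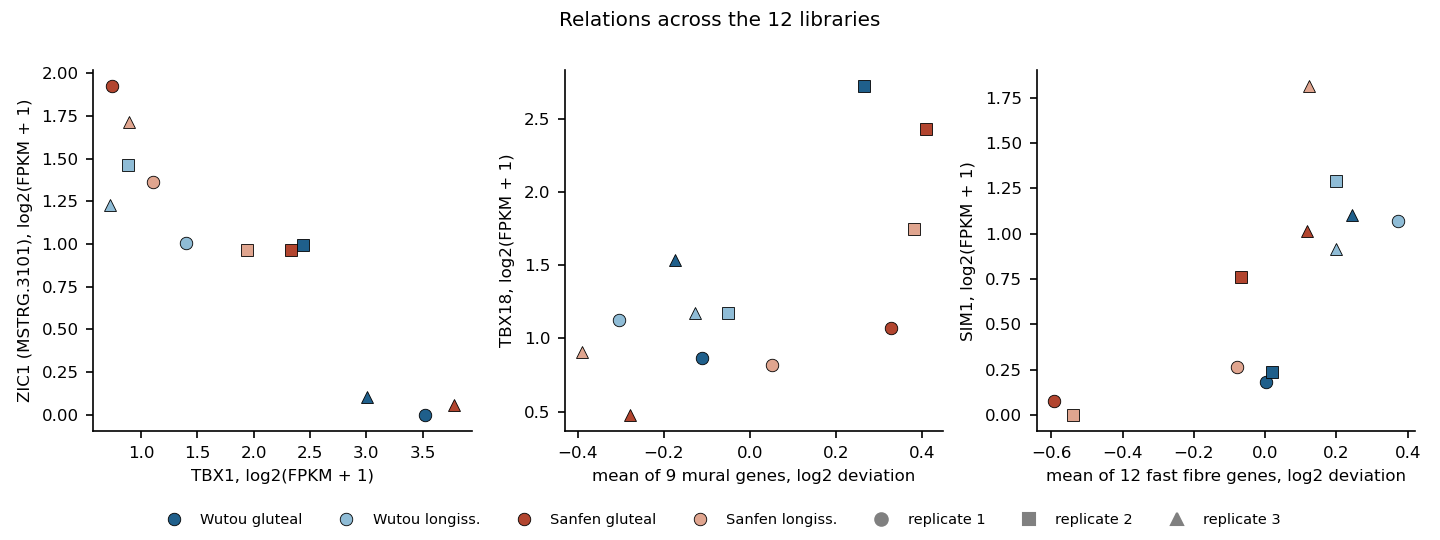
Level in log2(FPKM + 1) of ZIC1 (MSTRG.3101) against TBX1, of TBX18 against the mean deviation of 9 mural genes, and of SIM1 against that of 12 fast fibre genes; each point is a library, colours give the group and symbols the replicate number. The first panel falls (r = -0.932), and the others rise with wide scatter (r = 0.663 and 0.721).

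The loci most like each gene over the 12 libraries, among 9772 loci with a symbol, were as follows. For TBX1 they were RBFOX1, a splicing regulator of muscle and brain (r = 0.899), and UBE2E2, a ubiquitin-conjugating enzyme (r = 0.875). For SIM1 they were ASB2, a ubiquitin ligase subunit of muscle (r = 0.870), and DHRS7C, a reductase of the sarcoplasmic reticulum (r = 0.861). ZIC1 at MSTRG.3101 was most like PPIA, which encodes cyclophilin A (r = 0.918), and the lysosomal membrane gene LAMP1 (r = 0.854). PPIA had 12.2, 29.7 and 14.6 FPKM in Wutou gluteal, against 23.9, 31.3 and 25.5 FPKM in Wutou longissimus libraries. Sanfen libraries had 45.0, 24.8 and 11.5 FPKM in gluteal, against 22.7, 19.0 and 26.6 FPKM in longissimus libraries, so PPIA, like ZIC1 at MSTRG.3101, was highest in Sanfen gluteal library 1 and lowest among Sanfen libraries in gluteal library 3.

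LBX1 was most like TMEM186 (r = 0.932) and the ubiquitin ligase subunit gene GID4 (r = 0.885). EYA1 was most like RFX7, a DNA-binding factor (r = 0.907), and TRIM2 (r = 0.890). For EYA4 the nearest were SERTAD2 (r = 0.864) and the centriole gene POC1B (r = 0.823), and for SIX4 SETBP1 (r = 0.910) and ABHD4 (r = 0.878). For TBX18 they were the transporter gene ABCG2 (r = 0.879) and ATL3 (r = 0.841). PITX1 fell into separate clusters of libraries; its nearest loci TMCC1 and ASB15 had Spearman rho of only 0.463 and 0.440. The highest of 9772 correlations is large whatever the genes, so these names are a description of the 12 libraries.

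Relatives of the 9 genes and other positional genes gave no call in any muscle contrast. Of 8 other T-box genes 3 could be tested, and TBX15, which is known in mice from glycolytic fibres, had 38.4, 26.2 and 14.1 FPKM in Wutou gluteal libraries, against 27.3, 20.7 and 19.0 FPKM in Wutou longissimus libraries. Its averaged log2 difference was 0.08 ± 0.26, and that of TBX3, a limb patterning gene, was 0.24 ± 0.20 (SE; adjusted p = 0.983 and 0.851). DACH1, a corepressor that acts with the EYA proteins, had an averaged log2 difference of 0.11 ± 0.10 (SE; adjusted p = 0.874).

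SIM2, a relative of SIM1, had 0.0536, 5.20 and 3.21 FPKM in Wutou gluteal, against 0.477, 1.02 and 0.234 FPKM in Wutou longissimus libraries. In Sanfen SIM2 had 0.0409, 4.34 and 0.164 FPKM in gluteal, against 0.0132, 0 and 0.142 FPKM in longissimus libraries, so the Sanfen values were low in all but gluteal library 2. Its averaged difference was 0.90 ± 0.47 (SE; adjusted p = 0.774). Of 26 other positional genes 6 were tested and 1 had an unadjusted p under 0.05 in Wutou and averaged. It was PRRX1, a limb mesenchyme factor, with 2.27, 1.75 and 2.02 FPKM in Wutou gluteal, against 0.824, 0.859 and 1.22 FPKM in Wutou longissimus libraries. These did not overlap, an order with gluteal higher that was found at 8.7% of all loci. The Wutou difference was 0.62 ± 0.15 (SE; adjusted p = 0.870). In Sanfen PRRX1 differed by 0.18 ± 0.15 (adjusted p = 1). PAX3, the factor of somite muscle precursors, had 0.14 ± 0.12 averaged (adjusted p = 0.847).

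Of 8 myogenic regulatory genes 7 were tested, and none was called. MYOG, the factor of terminal muscle differentiation, had 1.94, 25.4 and 1.28 FPKM in Sanfen gluteal libraries, against 14.3, 52.6 and 12.4 FPKM in Sanfen longissimus libraries. Each Sanfen gluteal library was below the longissimus library of the same number, though the muscles overlapped. The Sanfen difference was -1.98 ± 0.84 (SE; adjusted p = 1) and the averaged one -1.19 ± 0.60 (adjusted p = 0.773). MEF2A, a cofactor of the myogenic regulators, had an averaged difference of 0.39 ± 0.18 (SE; adjusted p = 0.753).

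Between the strains none of the 9 genes passed the adjusted threshold in either muscle (limma), nor an unadjusted p of 0.05. Among all loci 0.00806% passed the adjusted threshold in gluteal muscle and 0.0161% in longissimus, and 4.86% and 5.52% the unadjusted one. In gluteal muscle 3 of the 9 estimates were positive (higher in Wutou) and 6 negative, and in longissimus 2 were positive and 7 negative. Over all loci 34.2% of estimates were positive in gluteal muscle and 40.7% in longissimus, so most loci leaned the same way. TBX1 had the largest estimate in gluteal muscle, 0.70 ± 0.60 (SE; adjusted p = 0.965), and SIM1 in longissimus, 0.40 ± 0.44 (SE; adjusted p = 0.904). The test of whether the muscle contrast differed between strains called 0.00806% of all loci and none of the 9, and 2.6% of loci and none of the 9 had an unadjusted p under 0.05. Adjusted p-values of the 9 genes ranged from 0.870 to 0.999 for the Wutou muscle contrast and from 0.745 to 0.947 for the averaged one.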

How the data were processed

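The deposited table gives FPKM per locus for 12 libraries, normalised by the authors for length and library size, per the file headers. The submitters' processing notes name cutadapt, Bowtie2 and TopHat2. The genome build, the counting and its use of strand are not given in the sources used here. Depth is unknown: steps between low FPKM values gave no clear read unit. RNA was taken up with Trizol, per the labels' protocols. RefSeq tables served only for gene names and neighbours.

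The 12408 of 27084 loci at 1 FPKM or more in 3 or more libraries were tested. The values log2(FPKM + 1) were fitted in R 4.3.3 with limma 3.58.1, on a scale that understates changes of low genes. A single linear model covered the 4 groups and all 12 libraries, with moderated variances and an intensity trend, and p-values were Benjamini-Hochberg adjusted over all loci (threshold 0.05). The model was tested on simulated data. Correlations and summaries used Python 3.11.15 with numpy 2.4.6 and pandas 2.3.3.

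Genes named by rule are the 9 factors, the 2 tested genes with the smallest p in the averaged contrast from each list of relatives, and the 2 loci most correlated with each factor. ZIC4, TBX4 and SHOX2 fall outside it and were chosen after their values were seen. MACROH2A1 is named as a neighbour of PITX1, and some genes of the marker lists are named singly. The members and lists were chosen with earlier results of these data known. Alternatives were a pseudocount of 0.1, no filter, median-of-ratios rescaling, quantile normalization, summed rows of a name, a replicate block, a fit on only the libraries compared and leaving out each library.

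Whether equal replicate numbers pair the muscles was checked by the correlation of deviations from group means. In Sanfen it was 0.246, 0.110 and 0.158 for equal numbers and -0.149 to -0.000829 for unequal ones, above the limit of 0.1, so the numbers were taken to pair the Sanfen libraries; the pairing comes from the values. In Wutou it was 0.182, 0.165 and 0.0711 for equal numbers and -0.169 to 0.0126 for unequal ones. The value of 0.0711 lay under the limit of 0.1, and the Wutou numbers were not taken as pairs. Equal numbers were above unequal ones there too, so the Wutou libraries may still be paired. The replicate block used the numbers of both strains. The main model had no block, so its SEs and p-values do not use any pairing. Some genes that this rule names are not reported here.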

Additional observations from a re-analysis of the deposited data

How the results depend on the processing

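None of the 9 factors was called in any of the 6 comparisons under the alternatives run for each; the replicate block was not run for the strain contrasts, nor the fit on only the libraries compared for the averaged and difference contrasts. Of 539 alternative muscle differences of the 9 factors and the ZIC1 reference locus, 524 kept their sign and 15 turned, all of them differences that were not called. SIM1 in Sanfen turned to 0.27 with a pseudocount of 0.1, SIX4 in Wutou to -0.03325 with median-of-ratios rescaling and -0.02622 with quantile normalization, and EYA4 in Sanfen to -0.00897 with rows of a name summed. Leaving out each library gave EYA4 -0.04658 to 0.26 in Sanfen, -0.14 to 0.28 in Wutou and -0.02304 to 0.19 averaged, TBX18 -0.38 to 0.59, SIM1 -0.42 to 0.49 and ZIC1 at MSTRG.3101 -0.84 to 0.10 in Sanfen, and SIX4 -0.12 to 0.19 in Wutou. Without Sanfen gluteal library 3, Wutou gluteal library 1 or Wutou gluteal library 3, PITX1 and LBX1 did not pass the filter and gave no value. The cause of these turns was not tested.

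Counts of called loci were small and moved with the settings. For the Sanfen muscle contrast 3 loci were called, 5 with a pseudocount of 0.1 or no filter, 1 with the replicate block and 0 to 5 with a library left out; the block changed no call among the 9 factors. For the Wutou contrast the count was 0, 1 with only the libraries compared and 0 to 2 with a library left out. For the averaged contrast it was 0, 1 with no filter and 0 to 4 with a library left out. For the strains in gluteal muscle it was 1, 0 with a pseudocount of 0.1 or either rescaling, 2 with only the libraries compared and 0 to 3 with a library left out. For the strains in longissimus it was 2, 6 with a pseudocount of 0.1, 4 with no filter, 1 with summed rows, 7 with only the libraries compared and 0 to 6 with a library left out. For the difference between strains it was 1, 2 with no filter or quantile normalization and 1 to 5 with a library left out. Depth is unknown, so the counting error of SIM1, LBX1, PITX1 and ZIC1, which lay near or under 1 FPKM in most libraries, cannot be given.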
